A study of Homo sapiens with 18 samples.

Results

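SELENOM and SELENOF are a pair of small selenoproteins of the endoplasmic reticulum (ER), and their mRNAs were followed through an RNA immunoprecipitation with the SECIS-binding protein SBP2. They were chosen by Ensembl ID, SELENOM as ENSG00000198832 and SELENOF as ENSG00000183291, which makes 2 of the 58676 gene IDs in the count table. Both had counts in each of the 18 libraries and passed the low-count filter. In RefSeq (GRCh38.p14), matched by symbol, SELENOM spans 31104777 to 31107568 on chromosome 22 and SELENOF spans 86862445 to 86914577 on chromosome 1. That table listed 0 other genes overlapping either span.

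The data were RNA immunoprecipitation sequencing (RIP-seq) libraries from HEK293T, a human embryonic kidney line that takes up plasmids readily (the growth protocol names HEK293). The treatments were transient Flag-SBP2 with 100 nM sodium selenite added 4 h after transfection, Flag-SBP2 without selenite, and the Flag vector alone as control. Each was harvested at 48 h in 3 biological replicates, per the series design. Each lysate gave a RIP library, made with anti-Flag magnetic beads, and an input library from a part set aside before the beads were added, so there were 9 RIP and 9 input libraries. The tagged SBP2 came from a transfected plasmid in addition to the cells' own, and all groups grew in medium with serum. A control with selenite but without Flag-SBP2 was not analysed here, so any selenite effect was measured under SBP2 overexpression only.

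Selenoproteins carry selenocysteine, which is inserted at a UGA codon that would otherwise end translation. The recoding depends on a stem-loop in the 3′ untranslated region of the mRNA, the SECIS element, which is bound by SBP2 together with the specialised elongation factor and the selenocysteine tRNA. SELENOM and SELENOF are related members of the thioredoxin-like family with a redox motif that holds the selenocysteine. SELENOF binds UDP-glucose:glycoprotein glucosyltransferase, the folding sensor of the ER glycoprotein quality control, while SELENOM has been linked to redox and calcium regulation in the ER, with high expression in brain. The SECIS sequences of both mRNAs were not used here.

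Library totals ran from 20.0 to 29.9 M counts for RIP and from 15.2 to 22.2 M for input (M, counts divided by 1000000). Chi-square per degree of freedom between replicates of a group was 4.70 to 26.5, above sampling noise in each pair, and all libraries were kept as separate samples. The deposited table gives IDs without symbols, so neither the transfected gene nor markers of the cell line were checked by name. All levels are counts per 1000000 (CPM) after TMM scaling, a share of each library rather than an amount of RNA.

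Flag-SBP2 precipitates held far more of both mRNAs than the control precipitate. SELENOM had 325, 316 and 354 CPM in SBP2 plus selenite RIP and 403, 473 and 427 CPM in SBP2 RIP, against 5.69, 5.41 and 5.68 CPM in control RIP. All 6 SBP2 precipitates lay far above the 3 control precipitates, and the 2 SBP2 treatments did not overlap each other. SELENOF had 2285, 2510 and 2930 CPM in SBP2 plus selenite RIP and 2742, 2936 and 2845 CPM in SBP2 RIP, against 119, 136 and 117 CPM in control RIP. For SELENOF the SBP2 treatments overlapped, and both stood clear of the control.

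SELENOM took up 0.0338 ± 0.0017% of all counts in SBP2 plus selenite RIP and 0.0431 ± 0.0036% in SBP2 RIP, against 0.000606 ± 0.000021% in control RIP (SD, n = 3). The control values rested on 144 to 187 SELENOM counts per library. For the library with 144 counts the exact 95% binomial interval was 4.93 to 6.88 CPM on library size alone, which covers counting error only. SELENOF took up 0.263 ± 0.031% in SBP2 plus selenite RIP and 0.282 ± 0.010% in SBP2 RIP, against 0.0134 ± 0.0011% in control RIP (SD, n = 3). Its control RIP libraries held 3528 to 3864 counts, so counting error weighed less there.

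**Figure D1:**
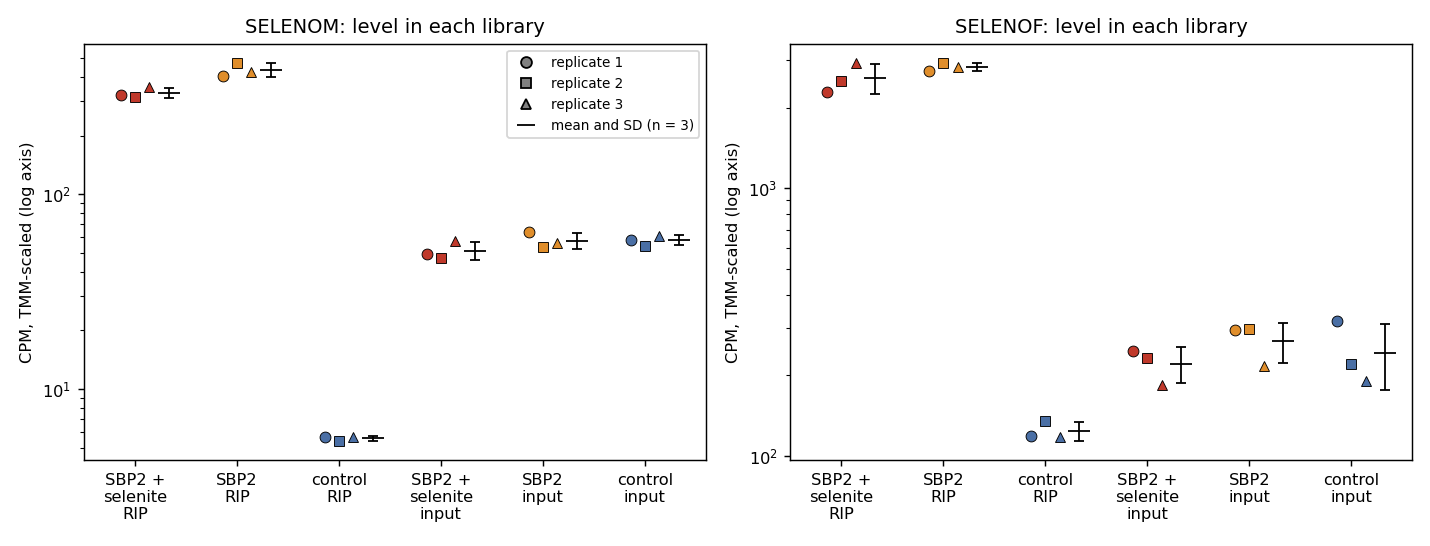
Levels of SELENOM (left) and SELENOF (right) in the 18 libraries, as TMM-scaled CPM on a log axis; points are libraries, with the replicate number as the symbol, and the bar beside them is the mean with its SD (n = 3). SBP2 RIP libraries are highest and control RIP libraries lowest for both genes, with the inputs in between, at 47.1 to 63.8 CPM for SELENOM and 184 to 319 CPM for SELENOF.

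RIP against RIP, without the inputs, gave a log2 change for SELENOM of 5.89 with selenite (SE 0.11, edgeR adjusted p = 2.39e-22) and 6.28 without (SE 0.11, edgeR adjusted p = 1.12e-22). For SELENOF it was 4.38 with selenite (SE 0.17, edgeR adjusted p = 7.79e-17) and 4.52 without (SE 0.17, edgeR adjusted p = 3.27e-17). Both members were therefore higher in both SBP2 precipitates, where 27.1% of all 17678 tested IDs were called higher with selenite and 29.4% without. By size of change 3 IDs lay above SELENOM with selenite and 2 without, and 17 IDs lay above SELENOF in each comparison. Both comparisons used the same 3 control libraries.

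The order of SELENOM levels over the 6 groups was SBP2 RIP at 434 ± 35 CPM, SBP2 plus selenite RIP at 332 ± 20 CPM, then the inputs, and control RIP last at 5.59 ± 0.16 CPM (SD, n = 3). Among the inputs the neighbours did not differ beyond their spread. SELENOF followed with SBP2 RIP at 2841 ± 97 CPM, SBP2 plus selenite RIP at 2575 ± 327 CPM, the inputs, and control RIP last at 124 ± 10 CPM (SD, n = 3). Here the first pair of neighbours also overlapped. Levels of one gene are not set against those of the other, since transcript lengths were not used.

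The ratio of RIP to input within a lysate showed which side of the starting material each precipitate fell on. SELENOM had log2 ratios of 2.72, 2.74 and 2.62 in SBP2 plus selenite lysates and 2.66, 3.15 and 2.93 in SBP2 lysates, against -3.33, -3.31 and -3.41 in control lysates. The mRNA was thus richer than input in each SBP2 precipitate and poorer in each control precipitate. SELENOF had ratios of 3.21, 3.43 and 4.00 in SBP2 plus selenite lysates and 3.22, 3.31 and 3.72 in SBP2 lysates, against -1.43, -0.70 and -0.70 in control lysates. The signs were the same as for SELENOM, with a control closer to the input.

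**Figure D2:**
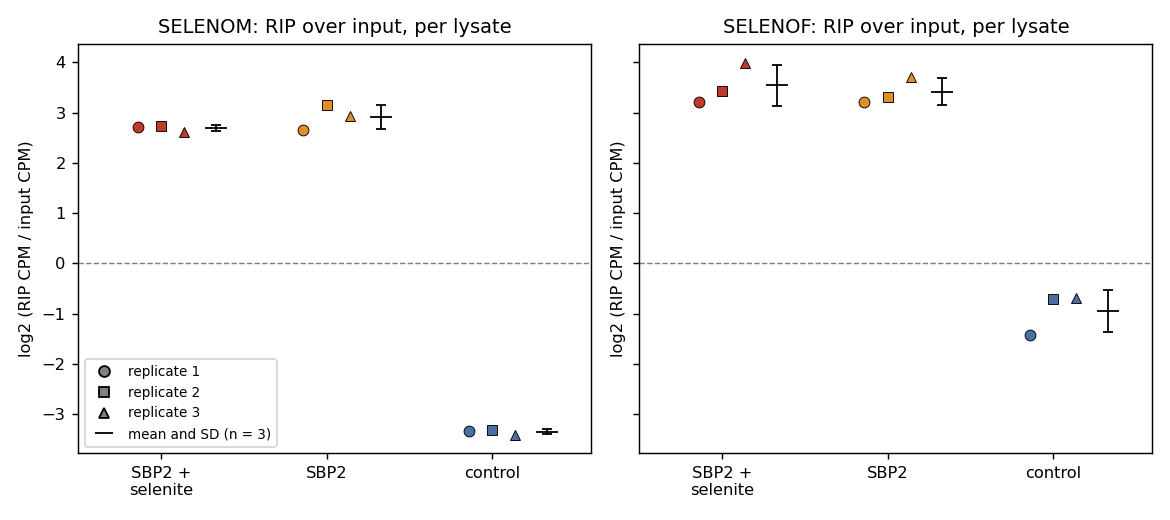
Log2 ratio of RIP over input CPM in each of the 9 lysates for SELENOM (left) and SELENOF (right), with the mean and SD per treatment (n = 3); the dashed line marks equal shares in RIP and input. SBP2 lysates lie between 2.62 and 4.00, and control lysates lie near -3.35 for SELENOM and -0.94 for SELENOF.

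In the fit over all genes, RIP exceeded input for SELENOM by log2 2.69 with selenite (SE 0.095, 6.45-fold, edgeR adjusted p = 2.58e-17) and 2.91 without (SE 0.095, 7.54-fold, edgeR adjusted p = 1.07e-17). SELENOF exceeded input by 3.54 with selenite (SE 0.16, 11.6-fold, edgeR adjusted p = 2.06e-15) and 3.40 without (SE 0.16, 10.6-fold, edgeR adjusted p = 3.21e-15). IDs called higher in RIP made up 30.7% of those tested with selenite and 30.3% without, so a call alone was common. The size was not: 1 ID lay above SELENOF with selenite and 2 without, and for SELENOM these numbers were 19 and 13. By the mean of the lysate ratios, 0 of 17678 IDs exceeded SELENOF in either SBP2 treatment, so its place at the top moved by 1 or 2 ranks with the way the ratio was computed.

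The control precipitate, which shows what the beads held without a tagged protein, separated the members. SELENOM fell to 5.59 ± 0.16 CPM in control RIP, against 58.0 ± 3.4 CPM in control input (SD, n = 3; log2 -3.37, SE 0.11, edgeR adjusted p = 3.4e-18). SELENOF fell to 124 ± 10 CPM in control RIP, against 243 ± 68 CPM in control input (SD, n = 3; log2 -0.97, SE 0.15, edgeR adjusted p = 2.29e-06). Of all IDs, 39.8% were called lower in this comparison. By the fitted change 146 IDs lay below SELENOM and 4141 below SELENOF, so SELENOM was near the lower end of the control background.

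Enrichment over control joins both sides: from the RIP-to-input log2 change in SBP2 lysates that of vector lysates is subtracted. SELENOM was enriched by log2 6.06 with selenite (95% interval 5.77 to 6.36, 66.9-fold, edgeR adjusted p = 4.78e-20) and 6.29 without (95% interval 5.99 to 6.58, 78.1-fold, edgeR adjusted p = 2.09e-20). SELENOF was enriched by 4.51 with selenite (95% interval 4.07 to 4.96, 22.9-fold, edgeR adjusted p = 2.02e-14) and 4.37 without (95% interval 3.93 to 4.82, 20.7-fold, edgeR adjusted p = 2.33e-14). The background of IDs called higher was 19.3% with selenite and 21.7% without. A log2 enrichment of 4 or more was reached by 16 IDs with selenite and by 20 without, and both members were among them.

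SELENOM had the largest estimate of 17678 IDs in both comparisons, which share the control libraries. Without selenite the ID next to it had an estimate of 6.26 with an SE of 0.91, so the top places were not separated there. With selenite the ID next to it had 5.66 with an SE of 0.14, and the SE of SELENOM was 0.14. A difference between IDs was not tested in either. SELENOF had rank 10 with selenite and rank 16 without. The neighbouring ID on each side of SELENOF lay at 4.61 and 4.42 with selenite and at 4.40 and 4.10 without, against an SE for SELENOF of 0.22 in each. On single values per lysate, the ratio averaged 2.80 ± 0.20 in the 6 SBP2 lysates and -3.35 ± 0.05 in the 3 control lysates for SELENOM (SD; exact permutation test, two-sided p = 0.0238, the lowest value 6 against 3 can give). For SELENOF it averaged 3.48 ± 0.32 in SBP2 lysates and -0.94 ± 0.42 in control lysates (SD; exact permutation test, two-sided p = 0.0238, again the lowest possible). Both tests pooled the lysates with and without selenite, as 3 against 3 for a single treatment cannot go below 0.1.

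**Figure D3:**
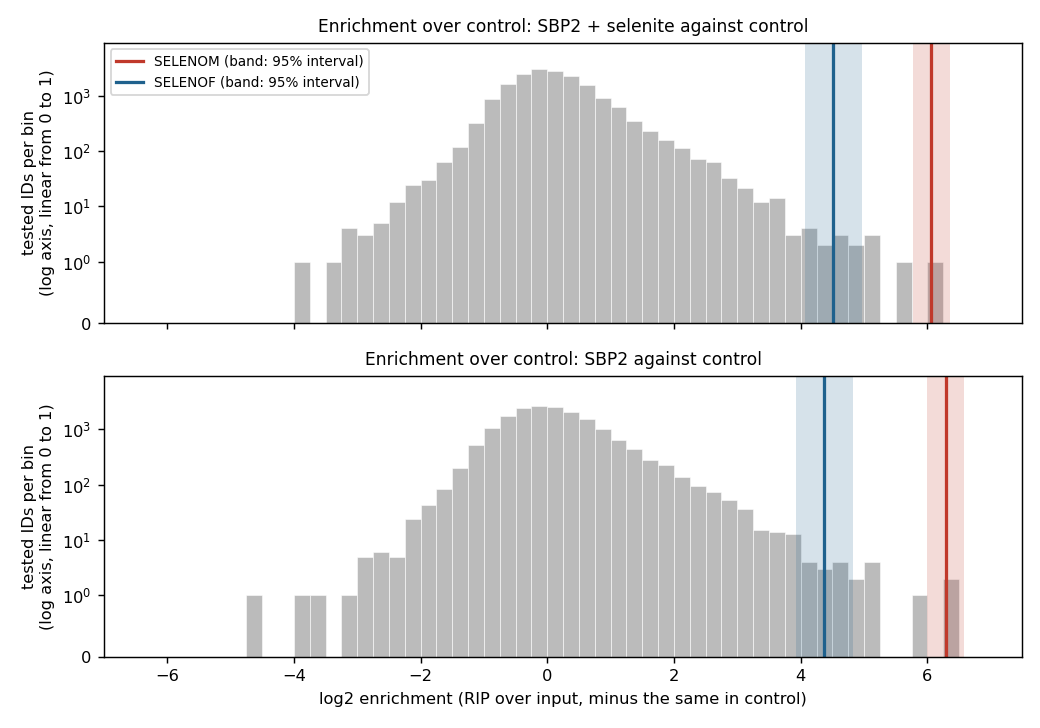
Distribution of log2 enrichment over control for the 17678 tested IDs, with selenite above and without below; grey bars count IDs in bins on a log axis that is linear from 0 to 1, and the coloured lines and bands mark SELENOM and SELENOF with their 95% intervals. SELENOM lies at 6.06 and 6.29 at the right end, SELENOF at 4.51 and 4.37 within the upper tail, and the median ID at 0.03 and 0.02.

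The larger enrichment of SELENOM came with a lower control, not with a higher SBP2 ratio. This can be read without any normalization or length from the counts of SELENOM per 1000 counts of SELENOF in the same library, whose absolute size has no meaning of its own but whose shifts do. The number was 142, 126 and 121 in SBP2 plus selenite RIP, 147, 161 and 150.0 in SBP2 RIP, and 47.9, 39.9 and 48.4 in control RIP. Among the inputs it was 199, 203 and 314 with SBP2 plus selenite, 217, 179.7 and 259 with SBP2, and 182, 247 and 323 in the control. The inputs of the 3 treatments overlapped fully, the control precipitates lay lowest, and the SBP2 precipitates lay between them and the inputs.

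**Figure D4:**
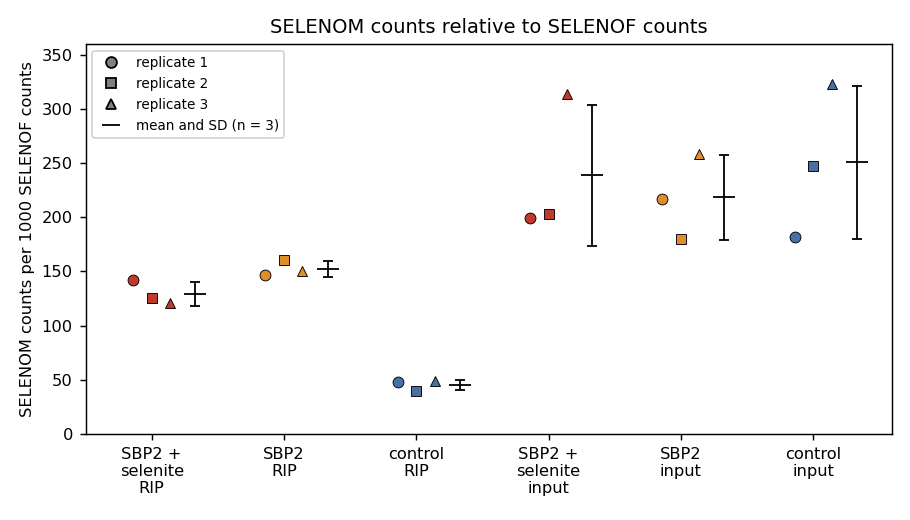
Counts of SELENOM per 1000 counts of SELENOF in each of the 18 libraries, with the mean and SD per group (n = 3). SBP2 RIP with and without selenite lies at 121 to 161, control RIP at 39.9 to 48.4, and the inputs at 179.7 to 323.

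Taking RIP minus input within a lysate, the log2 of this count ratio averaged -0.68 ± 0.40 in the 6 SBP2 lysates and -2.43 ± 0.44 in the 3 control lysates (SD). The difference was 1.76 on the log2 scale (exact permutation test, two-sided p = 0.0238, the lowest value 6 against 3 can give). In each of the 9 lysates the shift was negative, from -2.74 in a control lysate to -0.16 in an SBP2 lysate, so SELENOM was recovered less well than SELENOF relative to input in every precipitate, and most unequally in the control. Between SBP2 plus selenite and SBP2 lysates the shift was -0.85 ± 0.47 and -0.50 ± 0.32 (SD, n = 3 each), a difference of -0.35 with a two-sided exact permutation p of 0.5, where 3 against 3 cannot go below 0.1.

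Selenite was not found to change how much of either mRNA was recovered relative to its input. The RIP-to-input ratio of SELENOM averaged 2.69 ± 0.06 with selenite and 2.91 ± 0.24 without (SD, n = 3 each), and that of SELENOF 3.55 ± 0.41 with and 3.41 ± 0.27 without. The fitted difference was -0.22 for SELENOM (0.856-fold, 95% interval 0.714 to 1.03, edgeR adjusted p = 0.989). For SELENOF it was 0.14 (1.10-fold, 95% interval 0.821 to 1.48, edgeR adjusted p = 0.995). edgeR called 0% of tested IDs here, with 800 (4.53%) at an unadjusted p under 0.05, while DESeq2 called 1 and limma voom called 0. For SELENOF the interval leaves room for a rise of nearly 1.5-fold or a fall to 0.821-fold. That of SELENOM leaves room for a fall to 0.714-fold and for a rise to no more than 1.03-fold.

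Within the precipitates alone, SELENOM had 332 ± 20 CPM in SBP2 plus selenite RIP and 434 ± 35 CPM in SBP2 RIP (SD, n = 3 each), with no overlap. The log2 difference of -0.39 (SE 0.087, 95% interval -0.57 to -0.21) had an edgeR adjusted p of 0.0961 and did not pass. It passed with DESeq2 (-0.41, adjusted p = 0.00355), with limma voom (-0.39, adjusted p = 0.0365), without a low-count filter (-0.40, edgeR adjusted p = 0.0142) and in a fit of the RIP libraries alone (-0.40, edgeR adjusted p = 0.00814), so the call depended on the tool and the fit. The fit in which SELENOM did not pass called 0.00566% of IDs. Those in which it passed called 1.7% with DESeq2 (of 7053 IDs given an adjusted p), 0.187% with limma voom, 0.237% without a filter and 0.607% in the RIP libraries alone. SELENOF differed by -0.14 (SE 0.14, edgeR adjusted p = 0.962).

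The inputs gave the level of each mRNA in the lysate. As background, some selenoprotein mRNAs are degraded by nonsense-mediated decay when selenium is short, and others are not. SELENOM had 49.3, 47.1 and 57.6 CPM in SBP2 plus selenite input and 63.8, 53.3 and 55.9 CPM in SBP2 input, against 58.2, 54.5 and 61.3 CPM in control input. SELENOF had 247, 232 and 184 CPM in SBP2 plus selenite input and 294, 297 and 216 CPM in SBP2 input, against 319, 221 and 190 CPM in control input. As groups, all 3 treatments overlapped for both genes. Between same-numbered inputs, SELENOM was lower with SBP2 plus selenite than with SBP2 in 2 of 3 pairs and lower than in the control in 3 of 3. SELENOF was lower with SBP2 plus selenite than with SBP2 in 3 of 3 pairs and lower than in the control in 2 of 3. Fewer cells with the mRNA and less mRNA per cell cannot be told apart in such bulk libraries.

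**Figure D5:**
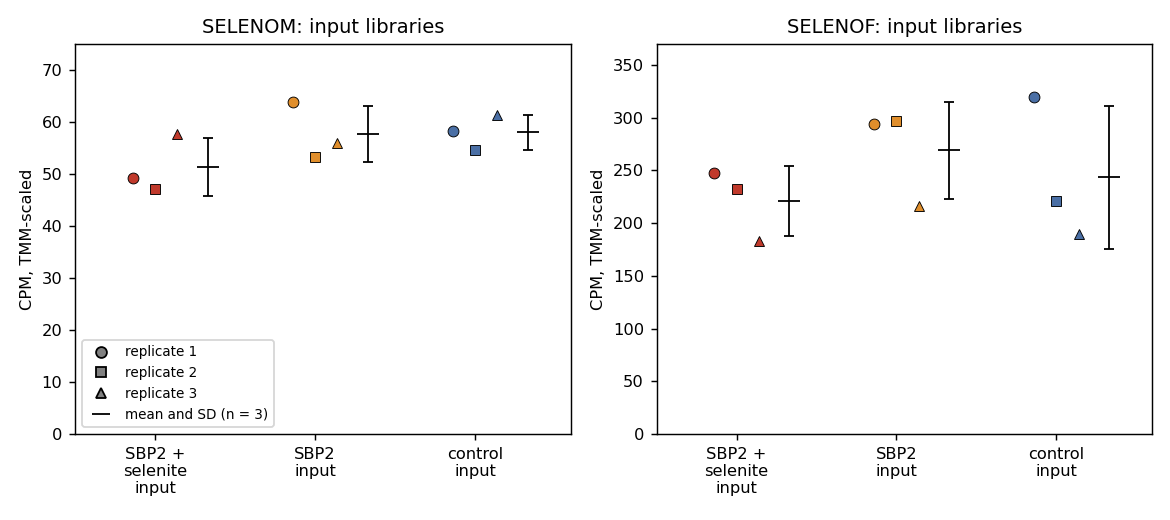
SELENOM (left) and SELENOF (right) in the 9 input libraries as TMM-scaled CPM, with the mean and SD per treatment (n = 3). The treatments overlap for both genes, and replicate 3 is the lowest SELENOF value in each treatment, at 184, 216 and 190 CPM.

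Neither member passed in any of the 3 input comparisons, with or without the replicate number as a block. For SBP2 plus selenite against control input, SELENOM differed by log2 -0.17 (0.887-fold, 95% interval 0.756 to 1.04, edgeR adjusted p = 0.615) and SELENOF by -0.13 (0.911-fold, 95% interval 0.705 to 1.18, edgeR adjusted p = 0.858). For SBP2 against control input, SELENOM differed by -0.0052 (0.996-fold, 95% interval 0.849 to 1.17, edgeR adjusted p = 0.985), with a sign that turned with the scaling. SELENOF differed there by 0.15 (1.11-fold, 95% interval 0.859 to 1.43, edgeR adjusted p = 0.709). For SBP2 plus selenite against SBP2 input the differences were -0.17 for SELENOM (95% interval -0.40 to 0.06) and -0.28 for SELENOF (95% interval -0.65 to 0.09), both at an edgeR adjusted p of 1.00. With the block, edgeR's adjusted p for SBP2 plus selenite against SBP2 input was 0.475 for SELENOM and 0.118 for SELENOF, and against control input it was 0.190 for SELENOM and 0.408 for SELENOF, with log2 differences of -0.17, -0.28, -0.17 and -0.12 in that order. For SBP2 against control input with the block, edgeR's adjusted p was 0.962 for SELENOM (log2 -0.0071) and 0.145 for SELENOF (log2 0.17). Without the block, the share of IDs called was 0.554% for SBP2 plus selenite against control input, 0.879% for SBP2 against control input and 0.00602% for SBP2 plus selenite against SBP2 input. With the block, edgeR called 1130, 2734 and 37 of 16616 IDs in that order, so calls were more common there.

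The members differed in how evenly their inputs agreed. Control inputs varied by a coefficient of variation of 5.87% for SELENOM and 27.7% for SELENOF. The gap was smaller in SBP2 plus selenite inputs, at 10.8% and 15.1%, and in SBP2 inputs, at 9.42% and 17.0%. Replicate 1 of the control held the highest SELENOF input, and its lysate had the lowest control RIP-to-input ratio, -1.43. Without that lysate the control change of SELENOF was -0.67 in place of -0.97, and still passed (adjusted p at most 0.000251 over all alternatives). In RIP libraries, SELENOF varied by 12.7% with SBP2 plus selenite, 3.41% with SBP2 and 8.22% in the control. SELENOM varied by 6.12%, 8.16% and 2.83% in the same order, so SELENOF was the steadier member in SBP2 RIP only.

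Over the 18 libraries, log2 CPM of the members correlated with each other at Pearson r = 0.910, which is a description, as the libraries share their groups. SELENOF stood at place 442 in likeness to SELENOM and SELENOM at place 502 in likeness to SELENOF, each among 13204 sufficiently abundant IDs (mean log2 CPM at least 1). The IDs most like SELENOM were ENSG00000143436 at r = 0.997 and ENSG00000125991 at r = 0.996, with log2 enrichments over control of 3.70 and 3.03 with selenite and 3.94 and 3.39 without. Those most like SELENOF were ENSG00000101247 at r = 0.996 and ENSG00000138777 at r = 0.995, with enrichments of 3.23 and 3.00 with selenite and 3.24 and 3.07 without. These IDs carry no symbol in the sources used here.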

How the data were processed

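RIP-seq libraries of HEK293T lysates were analysed from a deposited table of whole-number counts per Ensembl gene ID, with 1 column per library and replicates not pooled. The authors trimmed reads with Trim Galore 0.6.6, aligned them with STAR 2.7.6a and made the counts with featureCounts 2.0.1 on GRCh38 (hg38), according to the submitters' processing notes, per the labels. For the annotation, the strand setting and multi-mapping reads nothing is given in the sources used here, so reads of antisense or similar transcripts could be included. Washes used 300 and then 500 mM KCl, and 1 part in 5 was set aside as input, per the labels' protocols.

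Samples were grouped by title. The filterByExpr function (minimum count 10, minimum total 15) retained 17678 IDs in the fit of 18 libraries and 16616 in that of 9 inputs. Counts were TMM-scaled and tested with edgeR 4.0.16 in R 4.3.3 (two-sided quasi-likelihood test, Benjamini-Hochberg over all tested IDs, threshold 0.05), in 1 group-means model over 18 libraries or, for inputs, over 9. Standard errors and 95% intervals came from the test statistic. Lysate ratios were differences of log2 CPM with a prior count of 2. Single values were compared by exact permutation. Alternatives used DESeq2 1.42.0, limma 3.58.1, other scalings, filters, blocks and left-out replicates.

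SELENOM and SELENOF, the comparisons and the alternatives were chosen with earlier results of these data known. Both were named in every comparison whatever their values, and the IDs most like each were the first 2 by Pearson r over 18 libraries. Lists of other genes were not used, since 0 of 59792 RefSeq entries carried an Ensembl ID. The input was a part of the lysate used for RIP, per the labels' protocols, and libraries that share treatment and number were taken as 1 lysate. Their deviations from group means correlated at 0.0012 to 0.19. Those of RIP and input with different numbers correlated at -0.19 to 0.076, so the ranges overlapped and the correlations alone do not settle the matching. Same-numbered inputs with selenite correlated with SBP2 inputs at 0.11 to 0.19 and with control inputs at 0.13 to 0.31, all above 0.1. They were taken as paired in the pair counts and in the fits with the replicate number as block, while the main tests had no block. SBP2 and control inputs, at 0.085 to 0.22, and RIP libraries of different treatments did not all lie above 0.1. The replicate block was fitted for them too, as an alternative only. The labels do not say whether replicates were transfected on separate days, so p-values measure the spread between these samples.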

Additional observations from a re-analysis of the deposited data

How the results depend on the processing

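Of 380 values under alternatives, over 28 tests of the members, 350 kept their direction and side of the threshold. The lysate as replicate block changed no member's call. SELENOM in SBP2 plus selenite RIP against SBP2 RIP (-0.39, adjusted p = 0.0961) passed without a low-count filter (-0.40, p = 0.0142), with limma voom (-0.39, p = 0.0365), with DESeq2 (-0.41, p = 0.00355), in the 9 RIP libraries alone (-0.40, p = 0.00814) and with the replicate number as block (-0.39, p = 0.00152), although same-numbered libraries correlated at only 0.053 to 0.14. With 1 replicate left out, its RIP and input together, it lay between -0.44 and -0.32 (adjusted p from 0.209 to 0.761). The cause was not tested. SELENOM in SBP2 against control input changed sign, to 0.0071 with DESeq2 size factors, 0.022 with upper-quartile factors, 0.012 with library size alone, 0.0064 without a low-count filter, 0.017 with the stricter filter and 0.0069 with DESeq2, and lay between -0.081 and 0.056 with 1 library left out. Left-out replicates also turned SELENOF in SBP2 plus selenite against control input (-0.26 to 0.12, positive without control replicate 1) and its selenite effect on recovery (-0.082 to 0.31, negative without selenite replicate 3). None of these passed. In the permutation tests, leaving out a control lysate made 0.0714 the smallest possible p. Over all left-out lysates the differences were 6.09 to 6.19 for SELENOM, 4.18 to 4.54 for SELENOF and 1.60 to 2.01 for the count ratio. As replicate blocks of 3 pairs, whose smallest p is 0.25, they were 6.26, 4.36 and 1.93 with SBP2 and, for the count ratio, 1.58 with selenite.

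Scaling by library size alone shifted the median ID by 0.18 in control RIP against input and by -0.13 and -0.15 in the enrichments with and without selenite. Relative to it, SELENOM was then enriched by 6.04 and 6.27 and SELENOF by 4.48 and 4.35. Counts of called IDs moved over 1.5 times in the input and selenite comparisons: 92 for SBP2 plus selenite against control input became 23 to 1130, 146 for SBP2 against control input became 21 to 2734, and 1 for selenite became at most 37 in inputs and 267 in RIP, with the highest from the replicate block.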
